A study of Mus musculus with 13 samples.

Results

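The 10 genes described here code for the core enzymes that turn arachidonic acid into eicosanoids, and were chosen by name: Pla2g4a, Ptgs1, Ptgs2, Ptges, Ptgds, Alox5, Alox5ap, Lta4h, Alox12 and Alox15. All 10 were found among the 53465 genes of the liver count table. RNA came from the livers of 6 WT and 7 Nod2-/- male mice, with 1 library per mouse. Nod2 is an intracellular sensor of bacterial peptidoglycan. Both genotypes were on the BALB/c background, had been given DMBA (dimethylbenz[a]anthracene, a carcinogen) as pups, were kept on a high fat diet (HFD) and were 30 weeks old by the sample labels, whereas the time on HFD in the study's text is longer than that age. Every mouse thus had carcinogen and HFD, so the comparison is that of genotype within this tumor model, without an untreated liver beside it. By the study's methods WT and Nod2-/- mice were bred as separate lines in the same room and were not littermates, so genotype and breeding line cannot be told apart.

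Eicosanoids are short-lived lipid signals that act near the cell that makes them. Cytosolic phospholipase A2 frees arachidonic acid from membrane phospholipids. Cyclooxygenases then turn it into prostaglandin H2, from which terminal synthases make the individual prostaglandins, and lipoxygenases turn it into leukotrienes and hydroxy fatty acids. In the liver these enzymes are known mostly from the non-parenchymal cells, such as Kupffer cells (the resident macrophages), endothelial cells, platelets and recruited leukocytes, while hepatocytes take up, metabolize and excrete the products and also oxidize arachidonic acid with cytochrome P450 enzymes. In a bulk liver library, fewer cells of a type and less RNA per cell cannot be told apart.

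The libraries held between 13824780 and 20579984 counts on genes. The hepatocyte markers were all detected, led by Alb (albumin) and Apoa1, and their summed level was 72446 to 104238 CPM (counts scaled to library size) in WT livers and 76566 to 167185 CPM in Nod2-/- mice. Nod2 itself had at most 6 counts in any mouse, too few to test the labels against it. WT replicate 3 and Nod2-/- replicate 7 stood apart from their groups in several of the genes below, and most results that rest on them are given with and without them.

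Per length and depth (RPKM, counts divided by exon length and library size), the 10 genes fell into a wide order of levels. Lta4h was highest in WT mice with 4.45 ± 0.29 (SD, n = 6), followed by Ptgs1 with 1.84 ± 0.50, and these neighbours differed by more than their spread. Ptgds with 0.789 ± 0.461, Alox5ap with 0.670 ± 0.287, Alox5 with 0.325 ± 0.738, Ptges with 0.222 ± 0.209 and Pla2g4a with 0.143 ± 0.064 RPKM came next, and each lay within the spread of its neighbours. The place of Alox5 in this order came from WT replicate 3, which held 93.9% of the WT sum. The other WT mice had at most 4 counts of Alox5. Alox12, Alox15 and Ptgs2 were at 0.0608 RPKM or below. The order in Nod2-/- mice was again led by Lta4h (4.60 ± 0.28 RPKM, n = 7) and Ptgs1 (3.30 ± 1.51 RPKM), with Alox5ap at 3.06 ± 4.79 RPKM, a mean to which 1 mouse contributed most.

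Differential expression was tested with edgeR's quasi-likelihood test over 13545 genes, with p adjusted by the Benjamini-Hochberg method over all of them and a threshold of 0.05. Of the 10 genes, 6 (Pla2g4a, Ptgs1, Ptges, Ptgds, Alox5ap and Lta4h) passed the filter on low counts and 4 (Ptgs2, Alox5, Alox12 and Alox15) did not. None of the 6 was called in either direction by edgeR, against 1.16% of all genes tested. At an unadjusted p under 0.05, 2 of the 6 (Ptgs1 and Alox5ap) were higher in Nod2-/- mice, against 12.9% of all genes. All 6 had a log2 fold change above 0, as did 52.3% of all genes tested, and their median log2 fold change was 0.46 against 0.02 for all genes. The normalized counts of the genotypes overlapped in each of the 10 genes, while they did not overlap in 1.44% of the genes tested. DESeq2, the study's own tool, called 1 of the 10, Ptgs1, which was higher in Nod2-/- mice, against 3.81% of genes called higher and 3.45% called lower.

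**Figure D1:**
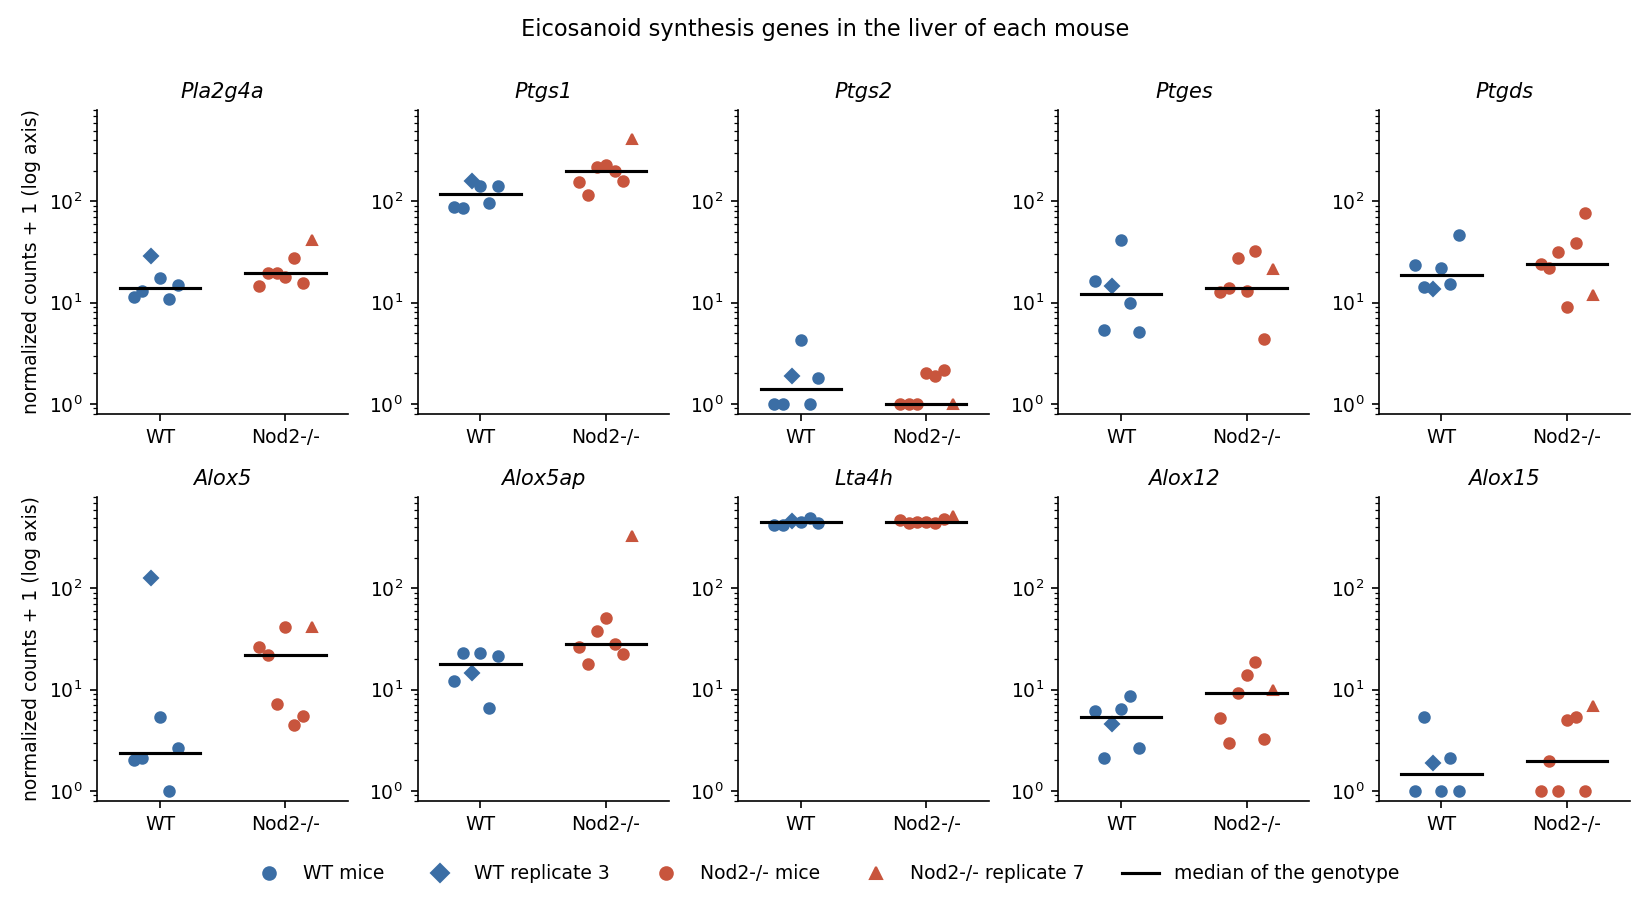
Normalized counts plus 1 of the 10 eicosanoid synthesis genes in each liver (log axis, 1 point per mouse, black line the median of 6 WT or 7 Nod2-/- mice). WT replicate 3 (diamond) holds the highest Alox5 value, 125, and Nod2-/- replicate 7 (triangle) the highest Alox5ap value, 326, while Lta4h lies between 420 and 522 in every mouse.

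The promoters of 3 of these genes are shown because the genes behaved differently in the livers. Ptgs1 had the lowest p of the 6 synthesis genes that edgeR tested. Alox5 separated the mice into a high and a low set that crossed the genotypes, and Lta4h was nearly constant. Each line gives the 250 bases before the transcription start of RefSeq (build GRCm38.p6), on the strand of the gene. Capitals mark the letters GGGCGG (the GC box, bound by Sp family factors) and GAGGAA (the core bound by PU.1, a factor of myeloid cells) on either strand; these motifs did not overlap each other.
Ptgs1, chr2:36230176-36230425, plus strand:
Ptgs1: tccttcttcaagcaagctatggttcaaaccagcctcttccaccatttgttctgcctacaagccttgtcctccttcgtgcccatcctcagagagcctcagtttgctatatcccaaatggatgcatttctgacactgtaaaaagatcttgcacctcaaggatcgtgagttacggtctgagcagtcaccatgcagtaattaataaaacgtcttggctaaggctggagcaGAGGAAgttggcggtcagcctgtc
Alox5, chr6:116461179-116461428, minus strand:
Alox5: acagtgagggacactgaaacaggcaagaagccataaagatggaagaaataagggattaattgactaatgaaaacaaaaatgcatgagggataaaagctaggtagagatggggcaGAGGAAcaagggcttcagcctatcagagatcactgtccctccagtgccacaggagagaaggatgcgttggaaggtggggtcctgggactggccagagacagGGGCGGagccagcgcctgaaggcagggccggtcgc
Lta4h, chr10:93453146-93453395, plus strand:
Lta4h: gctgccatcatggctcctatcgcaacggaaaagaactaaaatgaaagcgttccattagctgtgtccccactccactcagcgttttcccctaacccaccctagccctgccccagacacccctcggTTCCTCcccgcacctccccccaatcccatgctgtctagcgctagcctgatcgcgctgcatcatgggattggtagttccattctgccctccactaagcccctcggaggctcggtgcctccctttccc
The GC box letters were in 32.7% and the PU.1 core letters in 23.3% of all 32851 mouse promoter windows of this length. Of the 10 genes, 8 had a promoter in the table and 2 (Alox5ap and Alox15) did not. The PU.1 core letters were in the windows of Ptgs1, Ptgs2, Ptges, Alox5, Lta4h and Alox12 and not in those of Pla2g4a and Ptgds, and the GC box letters were in those of Ptgs2, Ptges, Alox5 and Alox12. The windows of Ptgs1 and of the nearly constant Lta4h thus both hold the PU.1 core letters.

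Pla2g4a codes for cytosolic phospholipase A2 alpha, which frees arachidonic acid from membranes when calcium rises. Its normalized counts (TMM-scaled to the mean library) ranged from 9.94 over a median of 13 to 28.0 in WT mice, and from 13.7 over 18.5 to 40.2 in Nod2-/- mice. The highest WT value was in replicate 3 and the highest Nod2-/- value in replicate 7, and all 7 Nod2-/- mice were above the WT median. The log2 fold change was 0.49 (SE 0.31, adjusted p = 0.355 by edgeR, 95% confidence interval -0.17 to 1.16). Without WT replicate 3 it was 0.75 (adjusted p = 0.117 by edgeR), and the exact permutation p of the difference in means went from 0.199 to 0.0379 (two-sided). When each mouse was left out in turn, the log2 fold change by edgeR lay between 0.26 (without Nod2-/- replicate 7) and 0.75, and Pla2g4a was not called in any of these fits.

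Ptgs1 codes for cyclooxygenase 1, the constitutive enzyme of prostaglandin H2 synthesis in platelets, macrophages and endothelium. In WT mice it had 85.5 to 157 normalized counts with a median of 118, and in Nod2-/- mice 115 to 414 with a median of 200. In 5 of the 7 Nod2-/- mice it was above every WT mouse, and replicate 7 was the highest. The means were 118 ± 32.4 (SD, n = 6) and 213 ± 97.2 (SD, n = 7), a log2 fold change of 0.84 (SE 0.26, adjusted p = 0.0929 by edgeR). The two-sided exact permutation test of the means gave p = 0.0152, where 1716 assignments of the mice allow no p below 0.000583. DESeq2 placed the gene past the threshold, with a log2 fold change of 0.83 (SE 0.27, adjusted p = 0.0342 by DESeq2). That call was lost in 5 of the 13 DESeq2 fits that each left out 1 mouse, in which WT replicate 1, 2 or 5 or Nod2-/- replicate 4 or 7 was missing (adjusted p = 0.0757 to 0.111 by DESeq2). Without Nod2-/- replicate 7 the log2 fold change was lowest, 0.58, and 4 of the remaining 6 Nod2-/- mice were still above every WT mouse. The exact permutation test gave p = 0.0260 without that mouse, and p = 0.0530 without each of WT replicates 1, 2 and 5.

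Kupffer cell markers, led by Clec4f and Cd5l, were set beside Ptgs1. All 8 markers of the list were detected, and 6 of the 8 had a log2 fold change above 0. Their summed level was 105 to 179 CPM in WT livers and 127 to 369 CPM in Nod2-/- mice, and the highest sum was in Nod2-/- replicate 7, the mouse with the most Ptgs1. Only 2 Nod2-/- mice were above every WT mouse in that sum. Nod2-/- replicate 4, second in Ptgs1, had 168 CPM. The platelet and megakaryocyte markers, led by Itga2b and Ppbp, were low (2.07 to 5.28 CPM in WT and 3.41 to 15.5 CPM in Nod2-/- mice). The part of these cells in the Ptgs1 difference was not tested.

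Ptgs2 codes for cyclooxygenase 2, the inducible enzyme that is known from inflamed tissue and many tumors. It had 0 counts in 3 WT and 4 Nod2-/- mice and at most 3 counts in any other mouse, so it was not detected in either genotype by the floor of 3 counts per library. Its neighbour on chromosome 1, Pla2g4a, 139 kb away, was detected in every mouse. A genotype difference in Ptgs2 was therefore not detectable at this depth, and no fold is given.

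The terminal prostaglandin synthases showed no genotype difference larger than the spread between mice. Ptges codes for microsomal prostaglandin E synthase 1, which makes prostaglandin E2 and is usually coupled to cyclooxygenase 2. Its normalized counts ranged from 4.09 over a median of 11.2 to 40.6 in WT livers and from 3.41 over 12.9 to 31.6 in Nod2-/- mice, so the genotypes covered nearly the same range. The log2 fold change was 0.26 (SE 0.53, adjusted p = 0.802 by edgeR, 95% confidence interval -0.87 to 1.39). The WT mouse with the most Ptges, replicate 4, was also the one with the highest sum of lung epithelium markers (201 CPM, led by Sftpc and Sftpa1), a cell type that liver should not hold. Those sums were 14.2 to 201 CPM in WT and 3.0 to 32.9 CPM in Nod2-/- mice, all 9 markers were detected, the 5 that passed the filter had a log2 fold change below 0, and their part in the Ptges values was not tested. WT replicate 2, second in that sum with 112 CPM, had only 4.39 normalized counts of Ptges. In WT replicate 4, Gm13400, a pseudogene that overlaps Ptges on its strand, had 3 counts.

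Ptgds codes for lipocalin-type prostaglandin D synthase. It had 12.7 to 45.9 normalized counts with a median of 17.6 in WT livers and 7.98 to 76.2 with a median of 23.3 in Nod2-/- mice. The highest value of each genotype was in replicate 6, and the lowest of all was in Nod2-/- replicate 4. The log2 fold change was 0.44 (SE 0.47, adjusted p = 0.601 by edgeR, 95% confidence interval -0.57 to 1.44). Unlike Ptgs1, Alox5ap and Pla2g4a, which were highest in Nod2-/- replicate 7, Ptgds was low in that mouse, with 10.8 normalized counts.

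Alox5 codes for 5-lipoxygenase, which starts leukotriene synthesis and is best known from neutrophils, monocytes and macrophages. WT replicates 1 to 6 had 1, 1, 138, 4, 0 and 2 counts, and Nod2-/- replicates 1 to 7 had 24, 21, 6, 41, 4, 4 and 41 counts. The WT mice were thus nearly without Alox5 except for replicate 3, which held 93.9% of the WT sum and had the highest value of all 13 mice, whereas the Nod2-/- mice fell into 4 with at least 20 counts and 3 with at most 6. With all mice the means were 22.1 ± 50.3 (SD, n = 6) and 20.2 ± 16.2 (SD, n = 7) normalized counts and did not differ beyond their spread (two-sided exact permutation p = 0.989). DESeq2 gave a log2 fold change of -0.13 (SE 1.22, adjusted p = 0.965 by DESeq2), and the gene was below edgeR's filter.

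Leaving out WT replicate 3, a choice made after seeing the data, turned this around. The WT mean without it was 1.63 ± 1.65 (SD, n = 5) normalized counts, a level that the Nod2-/- mean exceeded 12.4 times, and 6 of 7 Nod2-/- mice were then above every WT mouse (two-sided exact permutation p = 0.0152). DESeq2 then gave a log2 fold change of 3.62 (SE 0.81, adjusted p = 0.000520 by DESeq2), in a fit that called 7.96% of genes higher, and edgeR without a filter gave 3.52 (SE 0.76, adjusted p = 0.0202 by edgeR), in a fit that called 2.23% of genes higher. Without both WT replicate 3 and Nod2-/- replicate 7 the exact permutation p was 0.0498. The adjusted p of DESeq2 without both was 0.00254, in a fit that called 924 of 15343 genes higher.

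The mice with much Alox5 did not share the neutrophil markers, whose sum was 8.07 CPM in WT replicate 3 and 1084 CPM in Nod2-/- replicate 7. Of the other myeloid lists, that of monocytes and recruited macrophages, with all 9 markers detected and 7 of the 8 tested with a log2 fold change above 0, summed to 299 to 502 CPM in the 5 mice with at least 20 counts of Alox5 and to 81.3 to 306 CPM in the other 8, with Nod2-/- replicate 3 the only overlap. The cholangiocyte list, with 6 of 7 markers detected and Sctr not above 3 counts in any mouse, summed to 216 to 402 CPM in those 5 mice and to 35.8 to 181 CPM in the other 8. Spp1, the gene of osteopontin, is on both lists and had the highest mean level in both, with 208 to 388 CPM in the 5 mice and 30.8 to 173 CPM in the rest. Without Spp1 the sums overlapped, with 86.0 to 265 CPM against 48.1 to 133 CPM for monocytes and macrophages and 7.36 to 14.3 CPM against 4.20 to 14.5 CPM for cholangiocytes. The part of these cells in the Alox5 values was not tested. The mice with at least 20 counts of Alox5 were also the 5 mice with the highest level of H19, a fetal and tumor-associated non-coding RNA that was looked at after its values were seen. H19 had 1806 normalized counts in WT replicate 3 and 1826 to 5730 in Nod2-/- replicates 1, 2, 4 and 7, against 18.4 to 1272 in the other 8 mice. In Nod2-/- replicate 5, with 1272 normalized counts of H19, Alox5 had 4 counts. The fetal gene Afp was also highest in WT replicate 3, with 2257 normalized counts, followed by 803, 765 and 715 in Nod2-/- replicates 2, 4 and 1. Afp did not mark the same 5 mice, since Nod2-/- replicate 5 had 342 normalized counts and Nod2-/- replicate 7 had 236.

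Alox5ap codes for FLAP, the 5-lipoxygenase activating protein that presents arachidonic acid to Alox5. It had 5.52 to 21.9 normalized counts with a median of 17.0 in WT livers and 16.9 to 326 with a median of 27.3 in Nod2-/- mice. In 5 of 7 Nod2-/- mice it was above every WT mouse. Replicates 1 to 6 had at most 49.9 normalized counts, and replicate 7 alone, with 333 counts, made 64.7% of the Nod2-/- sum. The log2 fold change was 2.18 (SE 0.71, adjusted p = 0.103 by edgeR). Without replicate 7 it was 0.90 (SE 0.33, adjusted p = 0.188 by edgeR), and the ratio of the means went from 4.57 to 1.88. The two-sided exact permutation test gave p = 0.100 with replicate 7 and p = 0.0281 without it. The exact permutation p was 0.00649 to 0.0281 when any 1 Nod2-/- mouse was left out and 0.277 to 0.362 when any 1 WT mouse was. While replicate 7 is in the data, its count weighs more in the mean of a smaller group. The p with it thus depends on which group is smaller, so these ranges do not compare the mice left out. DESeq2 gave 0.84 (SE 0.33, adjusted p = 0.0974 by DESeq2), a fit in which the count of replicate 7 was replaced as an outlier, since by default DESeq2 does so in groups of at least 7, here Nod2-/- and not WT.

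Neutrophil markers were highest in the same mouse. All 14 markers of the list were above 3 counts in at least 1 mouse, and 5 of the 14 passed the filter, all 5 with a log2 fold change above 0. Their summed level was 4.50 to 11.9 CPM in WT livers and 7.21 to 1084 CPM in Nod2-/- mice, led by S100a9 and S100a8. Replicate 7 had 1084 CPM and replicate 4, second in Alox5ap among the Nod2-/- mice, had 96.0 CPM. In the other 5 Nod2-/- mice the sum was at most 47.0 CPM. The part of neutrophils in the Alox5ap values was not tested.

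Lta4h codes for leukotriene A4 hydrolase, which makes leukotriene B4, a neutrophil attractant, and is expressed in most tissues. It had 420 to 500 normalized counts in WT mice, with a median of 448, and 439 to 522 in Nod2-/- mice, with a median of 455. The coefficient of variation was 6.60% in WT and 6.13% in Nod2-/- mice, the lowest of the 10 genes. The log2 fold change was 0.05 (SE 0.07, adjusted p = 0.692 by edgeR) with a 95% confidence interval of -0.10 to 0.20. Among the leukotriene genes the constant level of Lta4h thus stood beside an Alox5 level that ranged from 0 to 125 and an Alox5ap level that ranged from 5.52 to 326 normalized counts.

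Alox12 and Alox15, neighbours on chromosome 11 that lie 88.8 kb apart, code for the platelet-type 12-lipoxygenase and the 12/15-lipoxygenase of peritoneal macrophages and eosinophils. Alox12 had 1 to 7 counts in WT and 2 to 20 counts in Nod2-/- mice, with means of 4.11 ± 2.51 (SD, n = 6) and 8.01 ± 5.78 (SD, n = 7) normalized counts. In 4 of 7 Nod2-/- mice it was above every WT mouse, and the two-sided exact permutation test gave p = 0.159. The highest count was in Nod2-/- replicate 5, which also had the highest sum of platelet and megakaryocyte markers, 15.5 CPM, and the part of platelets in it was not tested. Alox15 had 0 to 4 counts in WT and 0 to 6 counts in Nod2-/- mice (two-sided exact permutation p = 0.417), and 6 of the 13 mice had 0 counts, so a difference was not detectable at this depth. The peritoneal macrophage markers, led by Prg4 and Gata6, were at 64.7 to 113 CPM in WT and 82.5 to 126 CPM in Nod2-/- mice. Prg4 alone was at 56.0 to 103 CPM in WT and 72.4 to 111 CPM in Nod2-/- mice, so that sum was mostly that of 1 gene. The eosinophil and mast cell markers, led by Kit and Ccr3, were at 2.78 to 6.22 CPM in WT and 5.35 to 11 CPM in Nod2-/- mice. Of these, Epx, Ear1, Mcpt4 and Tpsb2 were not above 3 counts in any mouse.

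**Figure D2:**
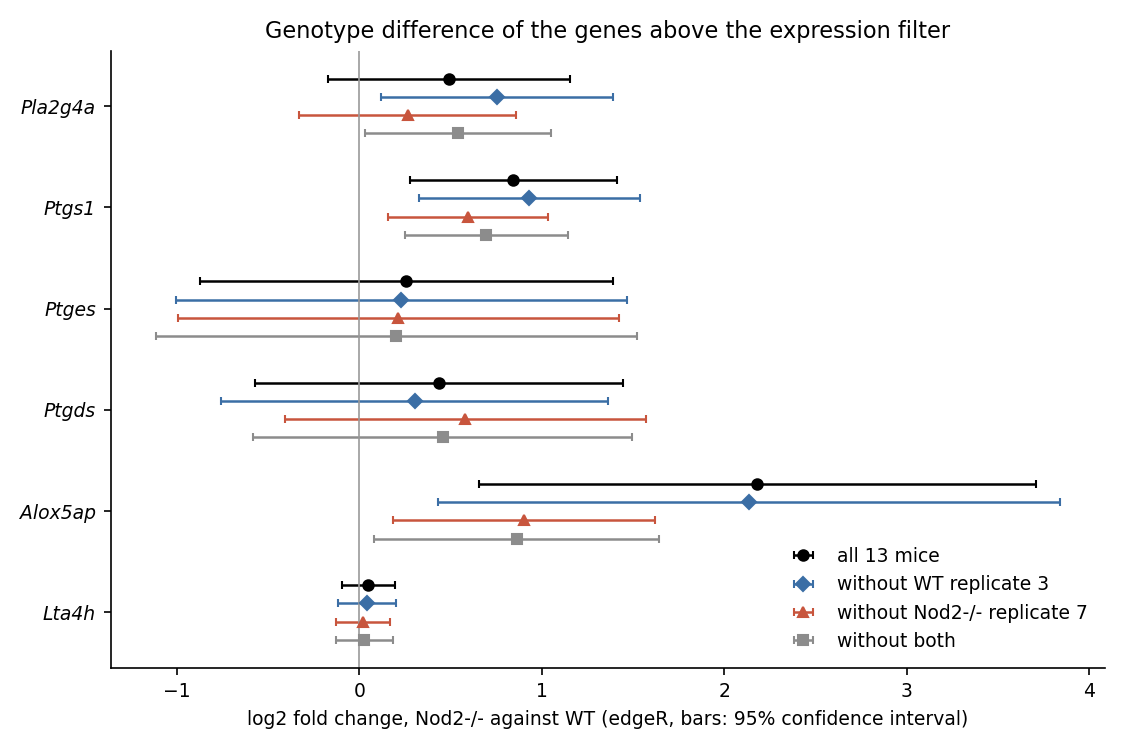
Log2 fold change of Nod2-/- against WT for the 6 genes that passed the filter, by edgeR with all 13 mice and without WT replicate 3, Nod2-/- replicate 7 or both (points estimates, bars 95% confidence intervals). Alox5ap moves from 2.18 to 0.90 without Nod2-/- replicate 7, Ptgs1 stays between 0.60 and 0.93, and Lta4h stays near 0.

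**Figure D3:**
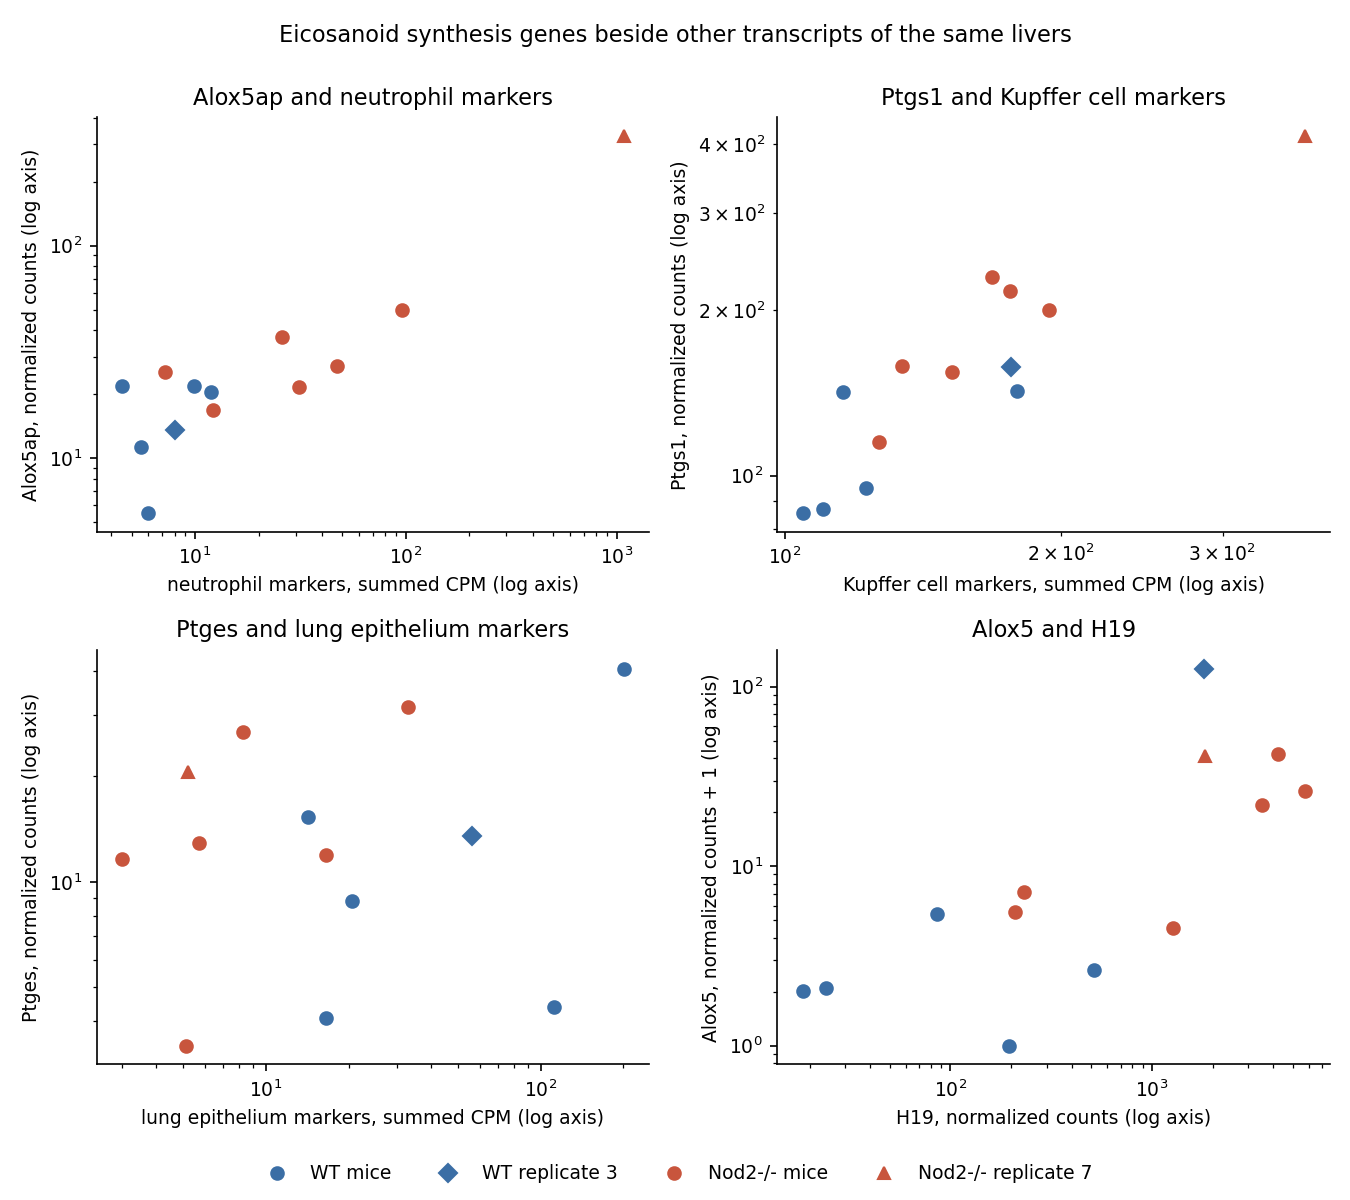
Normalized counts of Alox5ap, Ptgs1, Ptges and Alox5 in each mouse against the summed CPM of neutrophil, Kupffer cell and lung epithelium markers and against normalized counts of H19 (log axes, 1 point per mouse; Alox5 is plotted plus 1). Nod2-/- replicate 7 (triangle) has the highest value on both axes for Alox5ap (326 and 1084) and Ptgs1 (414 and 369), and the 5 mice with the most Alox5 are those with at least 1806 normalized counts of H19.

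Across the 13 mice, Ptgs1 and Alox5ap (Pearson r = 0.87, Spearman rho = 0.75 of log2 CPM) and Ptgs1 and Pla2g4a (r = 0.81, rho = 0.73) varied together, as a description in which both genes of a pair come from the same libraries. Nod2-/- replicate 7 was the highest mouse in each of these genes, and the coefficients are given with that mouse only. Ptgds had an r between -0.24 and -0.10 with the other 5 tested genes. The genes most like each tested gene, by Pearson r over the same 13 mice among 13544 other genes, were Fcgr4 (r = 0.96, and 0.92 without WT replicate 3 and Nod2-/- replicate 7) and Lair1 (0.95 and 0.94) for Pla2g4a. Both are receptors of myeloid cells. For Ptgs1 they were Vsir (0.96 and 0.93), a receptor of myeloid and T cells, and the potassium channel gene Kcna2 (0.96 and 0.92). For Alox5ap they were Cd300lf (0.94 and 0.87) and Cd37 (0.94 and 0.79), both of leukocytes. For Ptges (Nisch and Cxcl11), Ptgds (Npr3 and Ndrg3) and Lta4h (Ckap4 and Gtdc1) the r of the best matches was lower, between 0.79 and 0.85.

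The rest of the pathway was read from 8 lists of 106 further genes, of which 67 passed the filter. By edgeR 0 of the 67 were called, 10 were higher and 19 lower at an unadjusted p under 0.05, against 12.9% and 10.2% of all genes tested, and 28 had a log2 fold change above 0 and 39 below. DESeq2 called 5 higher and 12 lower of the 72 that it gave an adjusted p, against 3.81% and 3.45% of all genes. Of these 17 calls, 4 (Fads1, Cyp4f16, Cyp2c40 and Cyp2c69) were made in each of the 13 DESeq2 fits that left out 1 mouse, and 13 were lost in at least 1 of them. Directions in the lists therefore describe these mice and, unless DESeq2 is named, rest on no call.

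Genes that make and release arachidonic acid went in both directions. Of the 28 genes of phospholipases A2 and arachidonate supply 15 were tested, with a median log2 fold change of 0.18. Fads1, the delta-5 desaturase that makes arachidonic acid itself, had 5697 to 11634 normalized counts in WT and 9901 to 22774 in Nod2-/- mice, and 5 of 7 Nod2-/- mice were above every WT mouse (log2 fold change 0.72, SE 0.20, adjusted p = 0.0694 by edgeR and 0.0129 by DESeq2). For Elovl5, an elongase of polyunsaturated fatty acids, the log2 fold change was 0.44 (adjusted p = 0.0923 by edgeR and 0.0378 by DESeq2). Pnpla8, a calcium-independent phospholipase, had 2694 to 3334 normalized counts in WT and 1541 to 2707 in Nod2-/- mice, of which 6 of 7 were below every WT mouse (log2 fold change -0.40, adjusted p = 0.0923 by edgeR and 0.0283 by DESeq2). DESeq2 also called Pla2g7 higher and Pla2g6, Pla2g12a and Mgll lower, named after their values were seen. Mgll codes for monoacylglycerol lipase, and its log2 fold change by DESeq2 was -0.67.

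Of 9 other prostanoid synthases, all tested, 0 were called by edgeR or DESeq2, 1 was higher at an unadjusted p under 0.05 by edgeR, and the median log2 fold change was -0.02. Akr1c18, an aldo-keto reductase known for progesterone and prostaglandin F metabolism, had the largest difference, with 4.39 to 500 normalized counts in WT and 68.3 to 3195 in Nod2-/- mice (log2 fold change 3.0, SE 1.07, adjusted p = 0.126 by edgeR and 0.0612 by DESeq2). Single mice carried this value: the WT maximum was in replicate 3 and the Nod2-/- maximum in replicate 4. The log2 fold change was 5.23 without WT replicate 3 (adjusted p = 0.0174 by edgeR), in a fit that called 697 of 13611 genes higher. It was 2.04 without Nod2-/- replicate 4 (adjusted p = 0.276 by edgeR). The ratio of the means went from 8.12 to 39.3 and 4.19, respectively. For Fam213b the log2 fold change was -0.35 and for Ptgis, the prostacyclin synthase, -0.54 (adjusted p = 0.236 and 0.299 by edgeR). Of 8 other leukotriene enzymes 4 were tested, led by Dpep1, Mgst3 and Ggt5, with adjusted p-values of 0.517 and above by edgeR. The 4 other lipoxygenases had at most 3 counts in every mouse.

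Among 9 genes of eicosanoid breakdown and transport, 8 were tested. Ptgr2, a prostaglandin reductase, had 1507 to 2085 normalized counts in WT and 1062 to 1578 in Nod2-/- mice, and 6 of 7 Nod2-/- mice were below every WT mouse (log2 fold change -0.36, SE 0.10, adjusted p = 0.0723 by edgeR and 0.0162 by DESeq2). Its relative Ptgr1 went the other way (log2 fold change 0.87, adjusted p = 0.111 by edgeR and 0.0501 by DESeq2), as did the prostaglandin transporter Slco2a1 (0.63, adjusted p = 0.129 by edgeR).

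Receptors were low. Of 10 genes on the list of prostanoid receptors 3 were tested (Ptger2, Tbxa2r and the receptor regulator Ptgfrn), with adjusted p-values of 0.383 and above by edgeR. Of 8 leukotriene and lipoxin receptors 5 were tested, 4 with a log2 fold change above 0. Fpr2, a formyl peptide and lipoxin receptor of myeloid cells, had 3.31 to 10.8 normalized counts in WT and 6.35 to 118 in Nod2-/- mice (log2 fold change 2.11, SE 0.67, adjusted p = 0.0965 by edgeR and 0.0200 by DESeq2), while the exact permutation test of its means gave p = 0.0938. The maximum was in Nod2-/- replicate 7. Without that mouse the ratio of the means went from 4.41 to 2.32, Fpr2 fell below edgeR's filter, and DESeq2 gave a log2 fold change of 1.2 (SE 0.48, adjusted p = 0.138 by DESeq2). The leukotriene B4 receptor gene Ltb4r1 had a log2 fold change of 0.80 and the chemerin receptor gene Cmklr1 of 0.58 (adjusted p = 0.219 and 0.233 by edgeR).

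The P450 omega-hydroxylases and epoxygenases, the route by which hepatocytes oxidize arachidonic acid, pointed mostly one way. Of 30 genes 23 were tested, 20 with a log2 fold change below 0 and 3 above, with a median of -0.59 against 0.02 for all genes. The split was 20 and 3 with RLE normalization and with DESeq2, and 21 and 2 without Nod2-/- replicate 7. By edgeR 0 were called, with 12 lower and 2 higher at an unadjusted p under 0.05 (10.2% and 12.9% of all genes tested), while DESeq2 called 7 lower and 1 higher of 25 (3.45% and 3.81% of all genes). Cyp2c40 had 54.8 to 415 normalized counts in WT and 50.3 to 97.3 in Nod2-/- mice (log2 fold change -1.34, SE 0.36, adjusted p = 0.0673 by edgeR and 0.00780 by DESeq2), and for Cyp4f17 the log2 fold change was -0.66 (adjusted p = 0.0777 by edgeR and 0.0161 by DESeq2). Cyp4f16 was the gene with the opposite call, with 27.4 to 85.0 normalized counts in WT and 74.0 to 220 in Nod2-/- mice (log2 fold change 1.22, SE 0.31, adjusted p = 0.0644 by edgeR and 0.00599 by DESeq2). Genes of the Cyp2c family are close in sequence and may share reads, so single members of it are uncertain.

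Cyp4f16, Cyp4f18, Cyp2c69 and Alox5ap are also on the study's own list of eicosanoid genes, which was chosen on these samples, so their direction here is not independent evidence. Cyp4f18, which is known for the breakdown of leukotriene B4 in neutrophils, had at most 3 counts in WT livers and 2 to 42 in Nod2-/- mice and was below the filter. The maximum was in replicate 7, and without it the Nod2-/- mean went from 9.51 to 4.23 normalized counts. Cyp2c69 had 3 to 1109 counts in WT and 1 to 10 in Nod2-/- mice and was also below edgeR's filter, while DESeq2 called it lower (log2 fold change -6.65, SE 0.98, adjusted p = 8.11e-09 by DESeq2). It was low in 2 WT mice as well, so that 3 of 7 Nod2-/- mice were below every WT mouse.

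**Figure D4:**
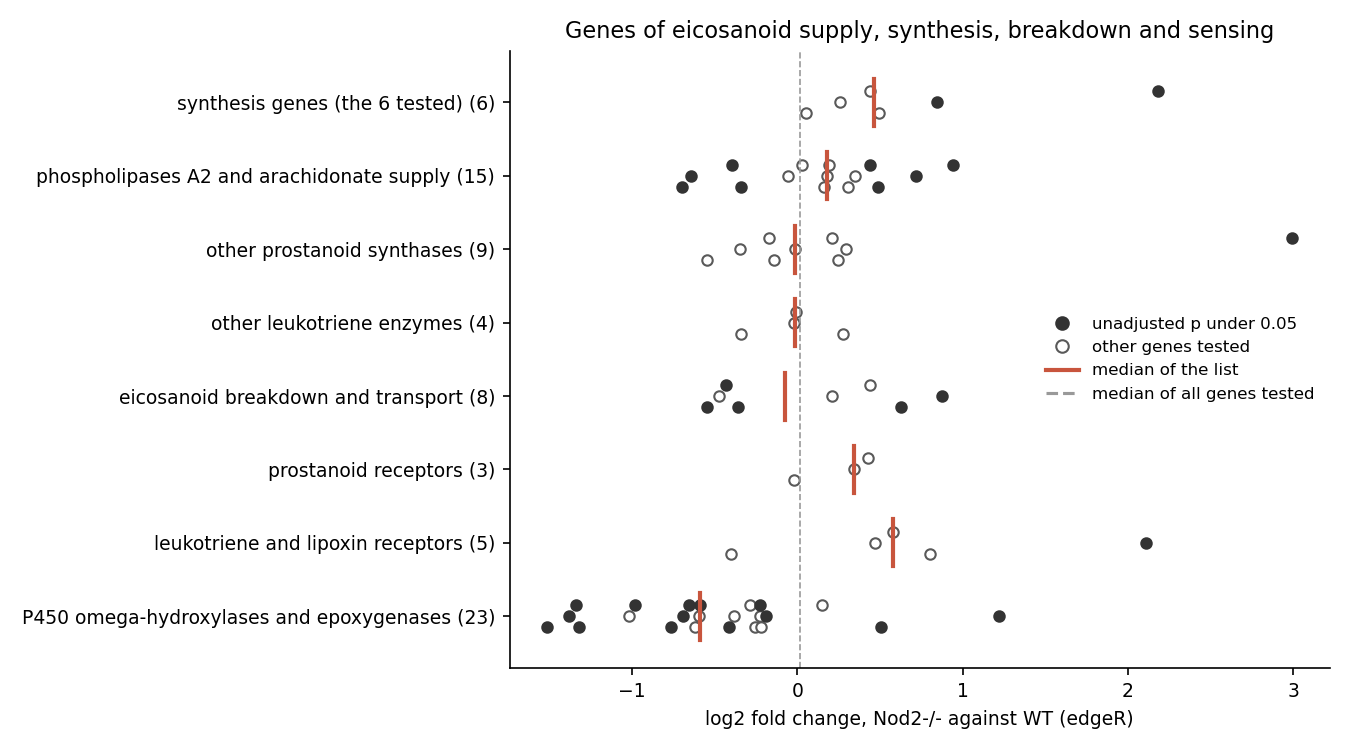
Log2 fold change of Nod2-/- against WT by edgeR for the genes tested of each list, with 1 point per gene (filled at an unadjusted p under 0.05), the median of the list (red) and the median of all genes tested (dashed, 0.02). The P450 list lies mostly left of 0 with a median of -0.59, and the 6 synthesis genes lie right of 0 with a median of 0.46.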

How the data were processed

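Liver RNA of 6 WT and 7 Nod2-/- mice was sequenced as stranded, paired-end libraries of polyadenylated RNA, 1 per mouse. Trimming (Trimmomatic 0.33) and mapping to GRCm38 with GENCODE M16 (TopHat2 2.1.1) were done by the authors, who deposited raw counts of reads per gene. How reads were assigned to genes, and with which strand setting, is not given in the sources used here, so overlapping genes and close paralogs are uncertain. The table had 1 row with no identifier, which was dropped. No pair of libraries of a genotype agreed within sampling noise.

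The test was edgeR's quasi-likelihood test (edgeR 4.0.16, R 4.3.3, filterByExpr, TMM, glmQLFit and glmQLFTest, two-sided, no covariate) with Benjamini-Hochberg adjustment over 13545 genes. Single genes were also compared by exact permutation of the mice over normalized counts. At most 3 counts in every library of a group was read as not detected, and this floor covers counting error only. Gene positions and exon lengths come from GENCODE M21. The test was also run on simulated data with 200 changed genes. No mouse was made to stand apart in those data, so that check does not cover the mice that did so here.

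The members, the lists of pathway and marker genes and the tests were chosen with earlier results of these data known. Named genes are the members, the 3 genes of each pathway list with the lowest p, those on the study's own eicosanoid list, the 2 most abundant genes of each marker list used, and the 2 genes most like each tested member. Alternatives were DESeq2 1.42.0, voomWithQualityWeights of limma 3.58.1, RLE normalization, other filters, the replicate number as a block and leaving out each mouse. DESeq2 without each mouse or without replacing outlier counts, and fits without both mice that stood apart, were added after seeing the data.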

Additional observations from a re-analysis of the deposited data

Results flagged for a closer look

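In 12 of 50 groups of mice (the 10 genes and the marker lists, each in both genotypes), the highest or lowest mouse lay so far from the nearest other that the gap, as a share of the whole range, was above Dixon's 95% critical value (0.625 for 6 mice and 0.568 for 7). Chance alone would flag about 1 in 20 groups of normally distributed values. The counts and CPM sums were not transformed and need not be so distributed, so that share may not hold here.

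Of the synthesis genes, the largest gaps were those of Alox5 in WT replicate 3 (125 normalized counts, ratio 0.965) and of Alox5ap in Nod2-/- replicate 7 (326 normalized counts, ratio 0.893). The same mice also stood apart in Pla2g4a (WT replicate 3, 28.0 normalized counts, ratio 0.640) and in Ptgs1 (Nod2-/- replicate 7, 414 normalized counts, ratio 0.617). WT replicate 4 stood apart in Ptges (40.6 normalized counts, ratio 0.691) and in Ptgs2 (3.29 normalized counts, ratio 0.725), WT replicate 6 in Ptgds (45.9 normalized counts, ratio 0.702) and WT replicate 2 in Alox15 (4.39 normalized counts, ratio 0.748). The ratios of Ptgs2 and Alox15 rest on at most 4 counts.

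Of the marker lists, Nod2-/- replicate 7 had the highest sums of neutrophil markers (1084 CPM, ratio 0.918) and Kupffer cell markers (369 CPM, ratio 0.721). WT replicate 3 had the highest sum of stellate cell and fibroblast markers (424 CPM, ratio 0.725), and Nod2-/- replicate 4 the highest sum of hepatocyte markers (167185 CPM, ratio 0.657).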

How the results depend on the processing

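The number of the 10 genes called higher was 0 by edgeR, with RLE normalization, other filters, voomWithQualityWeights and each mouse left out. It was 1 by DESeq2, with or without replacement of outlier counts, 0 to 2 by DESeq2 without each mouse, 2 by DESeq2 without both WT replicate 3 and Nod2-/- replicate 7, and 1 by edgeR without a filter and without WT replicate 3. None was called lower in any fit. Alox5ap had no adjusted p by DESeq2 without replacement of outlier counts or without any 1 of Nod2-/- replicates 1 to 6. In those fits it could thus not be called. Over the whole table, edgeR called 88 higher and 69 lower genes, DESeq2 605 and 549 and voomWithQualityWeights 519 and 324. EdgeR called 697 and 459 without WT replicate 3 and 28 and 26 without Nod2-/- replicate 7. DESeq2 called 1252 of 15730 genes higher without WT replicate 3 and 316 of 15036 without Nod2-/- replicate 7. Without both mice it called 924 of 15343 higher. Without a filter and without WT replicate 3, edgeR called 608 of 27293 higher. The causes were not tested.

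Of the pathway lists DESeq2 called 5 genes higher and 12 lower of 72. EdgeR called 0 to 6 higher and 0 to 8 lower when single mice were left out. The most were called without WT replicate 3, in a fit that called 697 higher and 459 lower of all 13611 genes tested. Without Nod2-/- replicate 3 edgeR called 1 higher.

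The Alox5 difference in mean normalized counts (-1.93 with all mice) ranged from -6.36 to 18.6 when single mice were left out, and was above 0 without WT replicate 3 (18.6) and without Nod2-/- replicates 3, 5 or 6 (0.412, 0.854 and 0.681). That of Ptgs2 ranged from -0.572 to 0.0861, above 0 without WT replicate 4. By DESeq2 the log2 fold change of Ptges was -0.00097 without Nod2-/- replicate 5, and that of Ptgds -0.0057 without Nod2-/- replicate 6. The permutation p of Alox5ap was under 0.05 without any 1 of the Nod2-/- mice (0.00649 to 0.0281) and above it without any 1 of the WT mice (0.277 to 0.362). With Nod2-/- replicate 7 kept, this p depends on which genotype has fewer mice, so the contrast does not compare the mice left out.

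The replicate numbers gave no sign of pairing: deviations of same-numbered mice correlated between -0.30 and 0.30, and 0 of 6 pairs matched best with their own number. With the replicate number as a block, edgeR called 0 of the 10 genes and 17 higher and 18 lower genes over the table. In that fit the log2 fold change of Ptgs1 was 0.60 (adjusted p = 0.124 by edgeR) and that of Alox5ap 0.92 (adjusted p = 0.211 by edgeR). Number 7 was held by Nod2-/- replicate 7 alone, so that mouse did not enter the genotype difference of this fit. By edgeR without that mouse and without a block, the log2 fold changes were 0.60 and 0.90.

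Depth limited Ptgs2, Alox15 and Alox12, with at most 3, 6 and 20 counts per mouse.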
